A study of Mus musculus with 7 samples.

Results

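The imprinted genes of the mouse were followed through 7 RNA-Seq libraries of reprogrammed fibroblasts and of pluripotent cells. The set was 38 genes named by symbol as known imprinted genes. The rule used no measured value, but the set was chosen with earlier results of these data known. Of these, 37 were matched to the 29267 Ensembl genes of the tables, and *Peg13* is not analysed here. All 37 reached a TPM of at least 1 in at least 1 library, as did 17733 of all genes. TPM is the abundance of a transcript per unit of its length, on a scale with a common total for all libraries. Of the 38 genes, 16 are expressed from the maternal and 21 from the paternal allele, and *Gnas* makes products from both. They fall into 7 clusters of 2 or more members, named here H19-Igf2, Igf2r, Dlk1-Meg3, Peg3, Snrpn, Peg10 and Kcnq1, and 12 genes outside these clusters.

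Mouse embryonic fibroblasts of the OG2 line, which carry a green fluorescent reporter under the *Oct4* promoter, were infected with retroviruses for *Oct4*, *Sox2*, *Klf4* and *c-Myc*. They were cultured either in mES medium, which holds serum, LIF and vitamin C, or in 5C medium, a serum-free medium with N2 supplement, bFGF, vitamin C and LIF, and were sorted on day 15 by their fluorescence. Fluorescent and non-fluorescent cells are called mES-Oct4GFP+ and mES-Oct4GFP- after mES medium, and after 5C medium 5C-Oct4GFP+ and 5C-Oct4GFP-, all at 0 passages by the labels. Cells of 5C-Oct4GFP+ origin were then converted in naive medium (LIF and inhibitors of GSK3 and MEK) or in primed medium (bFGF and activin A). A primed culture of the mouse ESC line R1, R1 ESCs-primed, was the third pluripotent culture. All 3 were at 20 passages by the labels. The first 6 libraries share the OG2 background and the 4 retroviruses, while R1 ESCs-primed is another line that was not reprogrammed. Each group had 1 library, so the spread between cultures was not measured, and every interval below covers counting error only. R1 ESCs-primed was induced on fibroblast feeders and then kept on serum-coated plates with CHIR99021 and IWR-1 in place of bFGF and activin A. Whether the converted primed cells were induced on feeders or kept in the same way is not given in the sources used here. One figure legend of the study gives 3 days in naive or primed medium and then 20 further passages for the cells used for RNA-Seq. The legend of another figure made from the RNA-Seq gives 3 days alone, so that the time of conversion is uncertain. Time in culture and medium cannot be told apart between the sorted and the converted cells, nor cell line, origin and any difference in upkeep between the 2 primed cultures.

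Imprinted genes carry DNA methylation from the egg or the sperm at a control region, and as a result are transcribed from the maternal or the paternal copy. Within a cluster, a non-coding RNA of one parental copy often lies beside protein-coding genes of the other, and many of the proteins promote or restrain fetal and placental growth. Imprints are a known weak point of cultured pluripotent cells, and reads counted per gene do not tell the parental copies apart. A level below is therefore the sum of both copies, and no value bears on whether an imprint was kept.

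Estimated counts summed to between 6108252 and 11496615 per library, and for a gene of median length a read then stood for 0.095 to 0.181 TPM. Of the 37 genes, 33 to 37 had at least 3 counts in a library. The pluripotency genes *Nanog* and *Zfp42* were at 697 and 337 TPM in mES-Oct4GFP+ cells but at 17.1 and 1.31 TPM in mES-Oct4GFP- cells, and *Fgf5*, a primed marker, was at 175 and 139 TPM in the primed library and R1 ESCs-primed. *Nanog* was still at 119.5 TPM in 5C-Oct4GFP- cells, so that this sorted fraction was not free of pluripotency transcripts. *Pou5f1*, which encodes Oct4, was highest in mES-Oct4GFP- cells, at 3640.4 TPM, where reads of the retroviral and of the resident gene cannot be told apart. Of 18 fibroblast markers, 18 reached 1 TPM in mES-Oct4GFP- cells, 17 in 5C-Oct4GFP- cells and 18 in each primed culture, against 9, 8 and 10 in mES-Oct4GFP+ cells, 5C-Oct4GFP+ cells and the naive library.

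Promoter windows from RefSeq (GRCm38.p6, 250 bases before to 50 bases after a start site) are shown for genes chosen for the reason given with each pair. *Peg3* and *Usp29* are shown because they start 163 bases apart on opposite strands, so that their windows share 263 bases, while their levels were highest in different libraries. In these 2 windows, chr7:6730370-6730669 on the minus strand and chr7:6730333-6730632 on the plus strand, capitals mark the 50 bases after each start site.
Peg3: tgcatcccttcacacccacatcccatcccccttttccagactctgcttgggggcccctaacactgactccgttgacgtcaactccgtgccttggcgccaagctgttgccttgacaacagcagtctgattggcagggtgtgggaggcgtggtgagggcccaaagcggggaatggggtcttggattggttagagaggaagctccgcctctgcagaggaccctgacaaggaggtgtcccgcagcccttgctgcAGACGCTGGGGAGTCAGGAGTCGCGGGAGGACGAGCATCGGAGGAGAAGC
Usp29: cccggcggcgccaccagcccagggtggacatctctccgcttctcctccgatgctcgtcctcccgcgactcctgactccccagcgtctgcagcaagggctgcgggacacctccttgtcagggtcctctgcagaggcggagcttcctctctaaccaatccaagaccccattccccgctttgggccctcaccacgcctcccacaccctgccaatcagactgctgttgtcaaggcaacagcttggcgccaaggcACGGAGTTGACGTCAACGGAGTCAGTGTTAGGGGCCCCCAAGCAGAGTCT
*Plagl1* and *Nnat* are shown as the genes with the lowest and the highest difference between Oct4GFP+ cells of the 2 media. In their windows, chr10:13090582-13090881 and chr2:157559828-157560127, both on the plus strand, capitals mark the hexamer TGCCGC or its reverse complement GCGGCA, the core that the imprint-protecting protein ZFP57 binds when it is methylated.
Plagl1: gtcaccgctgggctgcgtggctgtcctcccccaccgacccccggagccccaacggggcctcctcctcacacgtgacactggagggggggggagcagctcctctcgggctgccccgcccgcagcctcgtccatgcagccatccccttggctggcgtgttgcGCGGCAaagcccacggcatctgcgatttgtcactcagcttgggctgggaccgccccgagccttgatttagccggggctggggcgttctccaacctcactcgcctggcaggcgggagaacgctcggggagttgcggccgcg
Nnat: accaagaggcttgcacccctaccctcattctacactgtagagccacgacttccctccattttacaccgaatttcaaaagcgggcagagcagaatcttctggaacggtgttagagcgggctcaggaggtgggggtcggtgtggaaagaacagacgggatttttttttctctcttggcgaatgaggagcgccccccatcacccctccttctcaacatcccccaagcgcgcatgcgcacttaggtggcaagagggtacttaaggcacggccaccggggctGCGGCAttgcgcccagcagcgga
Across the 30 imprinted genes with a window in the table, which has none for *H19*, *Cdkn1c*, *Rtl1*, *Impact*, *Peg10*, *Sgce* and *Kcnq1*, TGCCGC lay on either strand in 12 of 46 windows (26.1%), against 3813 of 32851 windows of all genes (11.6%). No other motif was searched. The *Peg3* and *Usp29* windows held no match. The median window of an imprinted gene had 13.5 CpG sites and a GC content of 57.5%, and that of all genes had 7.0 CpG sites and 52.7%. A match is a string of letters in a window and shows no binding, and windows of a gene with several start sites can overlap.

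The 37 imprinted genes made up a small but uneven share of each library. Their summed TPM in mES medium was 1476 for Oct4GFP+ and 9579 for Oct4GFP- cells, in 5C medium 3420.1 and 4789, 1312 in the naive library, 4527 in the primed library and 5484 in R1 ESCs-primed. The naive and mES-Oct4GFP+ libraries thus had the lowest sums and mES-Oct4GFP- cells the highest. This order holds for the chosen genes only. A second list, of 42 matched imprinted genes, summed to between 1884 TPM in 5C-Oct4GFP- cells and 2421 TPM in 5C-Oct4GFP+ cells. Its sum was 2159 TPM in mES-Oct4GFP+ cells, 2082 TPM in mES-Oct4GFP- cells and 2103 TPM in the naive library. The mES-Oct4GFP- library held the highest level of 18 of the 37 genes, where 25.3% of all genes were highest, and R1 ESCs-primed held 9, where 10.9% of all genes were. Lowest levels fell in the naive library for 17 genes, against 23.9% of all genes. A tie was counted for the library listed first, for all genes as well. *Airn* and *Kcnq1*, at 0 TPM in both mES-Oct4GFP+ cells and the naive library, were thus counted for mES-Oct4GFP+ cells alone. None of the 37 was lowest in R1 ESCs-primed, where 8.55% of all genes were.

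**Figure D1:**
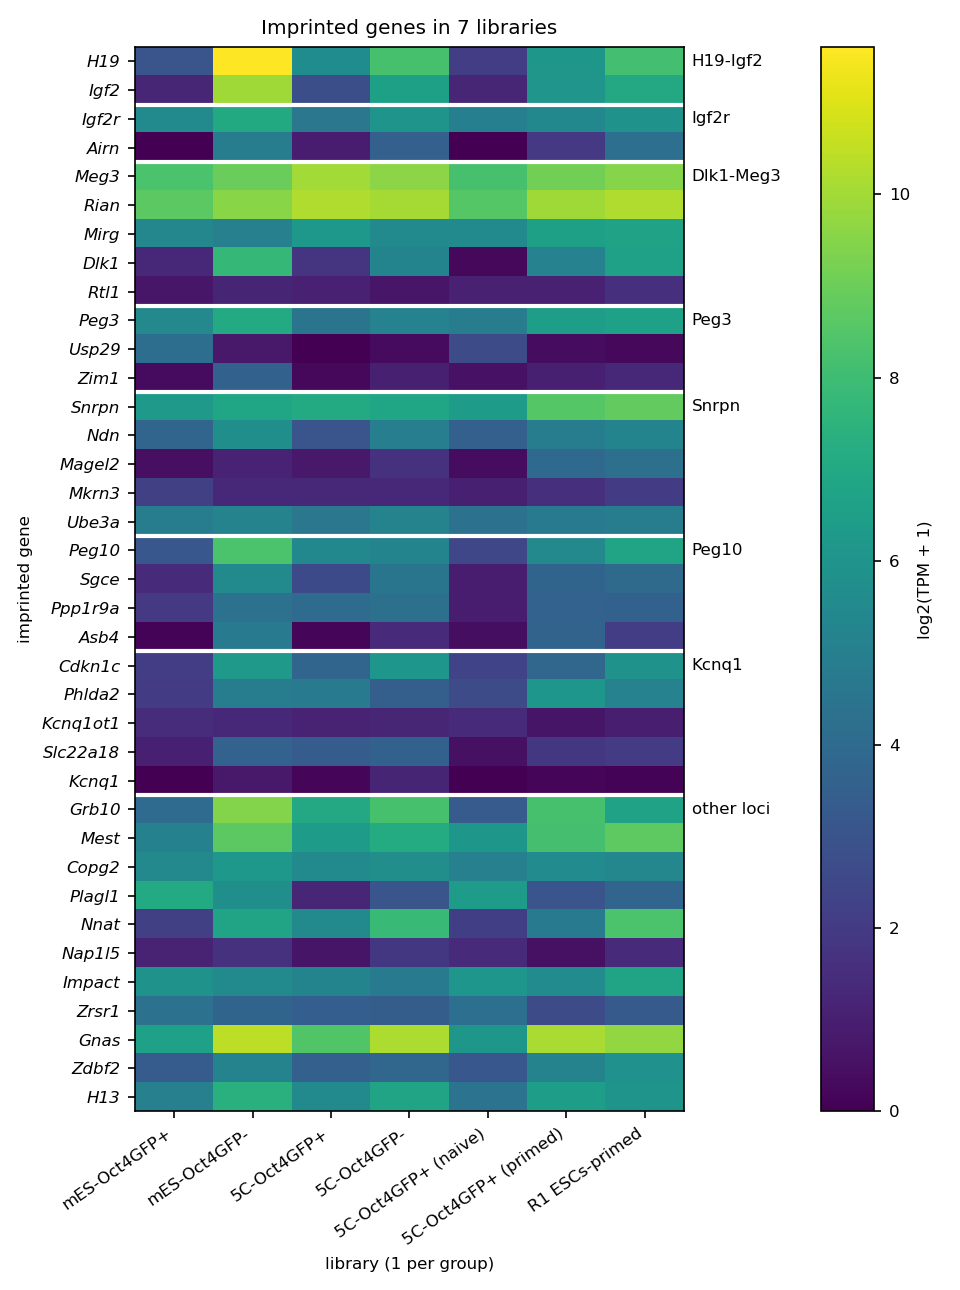
Levels of the 37 imprinted genes (rows, by cluster) in the 7 libraries (columns, 1 per group), as colour on the log2(TPM + 1) scale. The columns of mES-Oct4GFP+ cells and of the naive library are the darkest for most rows, with sums of 1476 and 1312 TPM, and *Plagl1* and *Usp29* are exceptions that are brighter there.

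At H19-Igf2, on chromosome 7, the levels spread more widely than at any other cluster. *H19*, a maternally expressed non-coding RNA that restrains growth (142575529 to 142578143, GRCm38), was at 7.45 TPM with the reporter on and 3110.2 TPM with it off in mES medium, 49.6 TPM and 297 TPM in that order in 5C medium, 3.34 TPM in the naive library, 70.0 TPM in the primed library and 281 TPM in R1 ESCs-primed. It was highest in mES-Oct4GFP- cells, over 10 times the next library, and below 10 TPM in mES-Oct4GFP+ cells and the naive library. *Igf2*, the paternally expressed fetal growth factor, was at 1.35 and 972 TPM in Oct4GFP+ and Oct4GFP- cells of mES medium, 5.94 and 95.03 TPM in those of 5C medium, and 1.40, 64.4 and 129 TPM in the naive, primed and R1 ESCs-primed libraries. The order of the libraries was nearly that of *H19*, and the 2 lowest were again mES-Oct4GFP+ cells and the naive library, whose intervals overlap. The TPM of *H19* was above that of *Igf2* in every library, by a ratio from 1.09 in the primed library to 8.35 in 5C-Oct4GFP+ cells. In the primed library the 95% interval of this ratio, 0.989 to 1.195, includes 1. The receptor that removes IGF2 from the cell surface, the maternally expressed *Igf2r* on chromosome 17, varied less, from 23.3 TPM in the Oct4GFP+ cells of 5C medium to 129 TPM in mES-Oct4GFP- cells. *Airn*, the paternally expressed non-coding RNA that runs through *Igf2r* in antisense, was at 0 TPM with the reporter on and 29.2 TPM with it off in mES medium, 0.83 TPM and 10.9 TPM in that order in 5C medium, 0 TPM in the naive library, 2.84 TPM in the primed library and 17.8 TPM in R1 ESCs-primed. It had no read in 2 libraries, where 3 counts would have been 1.25 and 0.88 TPM. The 2 genes overlap over 28354 bases on opposite strands, and as the library kit does not mark strand, reads from the shared stretch cannot be told apart.

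*Rian* and *Meg3*, maternal non-coding RNAs of Dlk1-Meg3 on chromosome 12, were the highest of the 37 genes in TPM in the naive and both Oct4GFP+ libraries. *Meg3*, the RNA at the head of the maternal transcripts (109541001 to 109571726), was at 318 and 497 TPM in Oct4GFP+ and Oct4GFP- cells of mES medium, 1012 and 767 TPM in those of 5C medium, and 302, 561 and 729.8 TPM in the naive, primed and R1 ESCs-primed libraries. *Rian*, which hosts small nucleolar RNAs, was at 409 TPM with the reporter on and 736 TPM with it off in mES medium, 1199 TPM and 1061 TPM in that order in 5C medium, 377 TPM in the naive library, 1000.4 TPM in the primed library and 1204 TPM in R1 ESCs-primed. Both were detected at over 300 TPM everywhere, were highest or nearly so in 5C-Oct4GFP+ cells, and were lowest in the naive library and mES-Oct4GFP+ cells. The ratio of *Rian* to *Meg3* in TPM stayed between 1.18 and 1.78. *Mirg*, a host of microRNAs further along, ranged from 32.5 TPM in mES-Oct4GFP- cells to 100.6 TPM in R1 ESCs-primed. On the paternal side, *Dlk1*, a membrane protein related to Notch ligands, was at 1.48 TPM with the reporter on and 210.0 TPM with it off in mES medium, 2.33 TPM and 36.3 TPM in that order in 5C medium, 0.20 TPM in the naive library, 34.5 TPM in the primed library and 98.9 TPM in R1 ESCs-primed. Its level did not follow *Meg3*: the ratio of *Meg3* to *Dlk1* in TPM was 2.37 in mES-Oct4GFP- cells, 7.38 in R1 ESCs-primed, 16.2 in the primed library, 21.1 in 5C-Oct4GFP- cells, 215 in mES-Oct4GFP+ cells and 435 in 5C-Oct4GFP+ cells. In the naive library *Dlk1* had 1 count. *Rtl1*, a retrotransposon-derived gene of the placenta, stayed between 0.62 and 2.03 TPM.

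At Peg3, on chromosome 7, neighbouring genes behaved differently. *Peg3*, a paternally expressed zinc finger gene, was at 42.5 and 136 TPM in Oct4GFP+ and Oct4GFP- cells of mES medium, 21.4 and 34.2 TPM in those of 5C medium, and 29.3, 89.8 and 97.3 TPM in the naive, primed and R1 ESCs-primed libraries. It was present in all libraries and differed between the lowest and highest by less than *Usp29*. *Usp29*, a ubiquitin protease gene that starts beside *Peg3* and is read from the same paternal copy, was at 17.3 TPM with the reporter on and 0.71 TPM with it off in mES medium, 0 TPM and 0.28 TPM in that order in 5C medium, 5.26 TPM in the naive library, 0.31 TPM in the primed library and 0.20 TPM in R1 ESCs-primed. It was above 5 TPM in 2 libraries, from 146 and 63 counts, and had at most 8 counts in each of the other 5. The ratio of *Peg3* to *Usp29* in TPM was accordingly 2.46 in mES-Oct4GFP+ cells, 5.58 in the naive library and between 122 and 487 where *Usp29* had any read elsewhere. The gene model of *Usp29* overlaps *Zim3* on the other strand over 11535 bases. *Zim1*, a maternally expressed zinc finger gene, was at 11.3 TPM in mES-Oct4GFP- cells and between 0.19 and 1.43 TPM in the others.

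**Figure D2:**
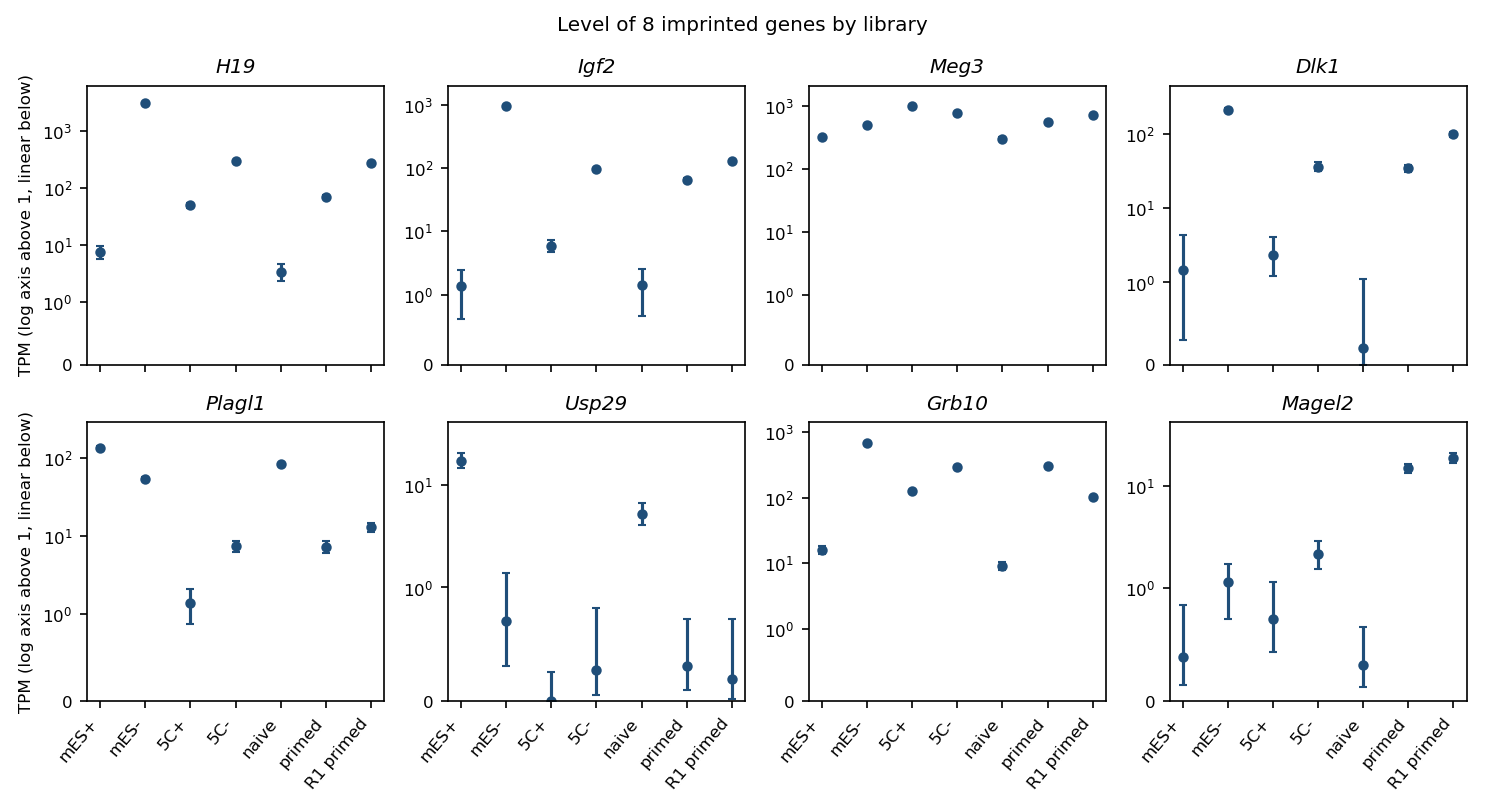
TPM of 8 imprinted genes in each of the 7 libraries (1 point per library), on an axis that is logarithmic above 1 TPM and linear below. Bars are exact 95% Poisson intervals of the estimated count and cover counting error only. *Usp29* stands above 5 TPM in mES-Oct4GFP+ cells and the naive library alone, *Magel2* above 14 TPM in the 2 primed libraries alone, and *H19* peaks in mES-Oct4GFP- cells at 3110 TPM.

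At Snrpn, the Prader-Willi and Angelman region of chromosome 7, 2 of the 5 genes marked the primed cultures. *Snrpn*, which encodes a spliceosomal protein, was at 74.0 and 112 TPM in Oct4GFP+ and Oct4GFP- cells of mES medium, 136 and 114 TPM in those of 5C medium, and 83.5, 375 and 446 TPM in the naive, primed and R1 ESCs-primed libraries. *Magel2*, a paternally expressed member of the MAGE family, was at 0.39 TPM with the reporter on and 1.14 TPM with it off in mES medium, 0.73 TPM and 2.14 TPM in that order in 5C medium, 0.32 TPM in the naive library, 14.8 TPM in the primed library and 18.8 TPM in R1 ESCs-primed. Both were highest in R1 ESCs-primed and next in the primed library, and for *Magel2* no other library passed 2.14 TPM. *Ndn*, the related gene for necdin, was at 12.8 and 54.1 TPM in Oct4GFP+ and Oct4GFP- cells of mES medium, 7.21 and 29.8 TPM in those of 5C medium, and 10.7, 29.1 and 36.2 TPM in the naive, primed and R1 ESCs-primed libraries, highest in mES-Oct4GFP- cells and lowest in 5C-Oct4GFP+ cells. *Mkrn3*, a makorin ring finger gene, lay between 1.03 and 3.52 TPM. *Ube3a*, the E3 ubiquitin ligase gene whose imprint is known from neurons, lay between 18.9 and 35.9 TPM and had the smallest spread of the cluster. Its gene model overlaps *Snhg14* on the other strand over 3613 bases.

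The Peg10 cluster, on chromosome 6, was low throughout mES-Oct4GFP+ cells and the naive library. *Peg10*, a retrotransposon-derived gene needed for the placenta, was at 7.89 TPM with the reporter on and 319.6 TPM with it off in mES medium, 41.8 TPM and 36.9 TPM in that order in 5C medium, 4.48 TPM in the naive library, 43.6 TPM in the primed library and 109.5 TPM in R1 ESCs-primed. *Sgce*, the epsilon-sarcoglycan gene that starts next to it, was at 1.59 and 43.8 TPM in Oct4GFP+ and Oct4GFP- cells of mES medium, 5.03 and 22.1 TPM in those of 5C medium, and 0.91, 12.4 and 15.2 TPM in the naive, primed and R1 ESCs-primed libraries. *Ppp1r9a*, which encodes the actin-binding neurabin, was at 2.86 and 19.2 TPM in Oct4GFP+ and Oct4GFP- cells of mES medium, 15.4 and 18.4 TPM in those of 5C medium, and 0.87, 11.4 and 11.0 TPM in the naive, primed and R1 ESCs-primed libraries. For each of these 3 genes the naive library was lowest and mES-Oct4GFP+ cells next. *Asb4*, a gene of an ankyrin-repeat SOCS box protein, was at 0.09 TPM with the reporter on and 27.4 TPM with it off in mES medium, 0.16 TPM and 1.68 TPM in that order in 5C medium, 0.33 TPM in the naive library, 11.8 TPM in the primed library and 3.29 TPM in R1 ESCs-primed. It was at or below 5 counts in 3 libraries and above 10 TPM in mES-Oct4GFP- cells and the primed library.

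At Kcnq1, on chromosome 7, *Cdkn1c* and *Slc22a18* were highest in mES-Oct4GFP- cells and *Phlda2* in the primed library. *Cdkn1c*, the cyclin-dependent kinase inhibitor p57, was at 3.30 TPM with the reporter on and 73.2 TPM with it off in mES medium, 12.9 TPM and 68.2 TPM in that order in 5C medium, 4.07 TPM in the naive library, 13.2 TPM in the primed library and 58.8 TPM in R1 ESCs-primed. Both Oct4GFP- libraries and R1 ESCs-primed were between 58.8 and 73.2 TPM, and the other 4 did not pass 13.3 TPM. *Phlda2*, which limits placental growth, was at 3.08 and 29.5 TPM in Oct4GFP+ and Oct4GFP- cells of mES medium, 26.6 and 10.3 TPM in those of 5C medium, and 5.26, 66.7 and 34.6 TPM in the naive, primed and R1 ESCs-primed libraries. *Slc22a18*, an organic cation transporter gene, was at 1.04 and 11.4 TPM in Oct4GFP+ and Oct4GFP- cells of mES medium, 9.25 and 11.3 TPM in those of 5C medium, and 0.44, 2.63 and 3.15 TPM in the naive, primed and R1 ESCs-primed libraries, with the 3 libraries above 9 TPM being the Oct4GFP- pair and 5C-Oct4GFP+ cells. *Kcnq1ot1*, the paternal non-coding RNA of the cluster, was between 0.60 TPM in the primed library and 1.81 TPM in mES-Oct4GFP+ cells. *Kcnq1*, the potassium channel gene it overlaps over 93092 bases on the other strand, had at most 16 counts in any library, and none in mES-Oct4GFP+ cells and the naive library.

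Among genes outside these clusters, *Nnat*, *Grb10* and *Plagl1* had the widest ranges on the log2(TPM + 1) scale, at 6.16, 6.09 and 5.82. *Plagl1*, a paternally expressed zinc finger transcription factor gene of chromosome 10, was at 135 TPM with the reporter on and 53.5 TPM with it off in mES medium, 1.40 TPM and 7.41 TPM in that order in 5C medium, 82.5 TPM in the naive library, 7.30 TPM in the primed library and 12.9 TPM in R1 ESCs-primed. mES-Oct4GFP+ cells and the naive library were highest, mES-Oct4GFP- cells were next, and 5C-Oct4GFP+ cells were lowest, from 23 counts. *Nnat*, which encodes neuronatin, was at 3.64 TPM with the reporter on and 109.8 TPM with it off in mES medium, 45.7 TPM and 223 TPM in that order in 5C medium, 3.47 TPM in the naive library, 27.2 TPM in the primed library and 318 TPM in R1 ESCs-primed. R1 ESCs-primed and 5C-Oct4GFP- cells were highest and the 2 lowest were mES-Oct4GFP+ cells and the naive library. *Nnat* lies within *Blcap* on the other strand, with 2445 shared bases. *Grb10*, an adaptor that dampens insulin and IGF1 receptor signalling, was at 15.8 and 688 TPM in Oct4GFP+ and Oct4GFP- cells of mES medium, 125 and 294 TPM in those of 5C medium, and 9.11, 302 and 101 TPM in the naive, primed and R1 ESCs-primed libraries. *Mest*, a paternally expressed gene of the hydrolase fold, was at 32.9 and 415 TPM in Oct4GFP+ and Oct4GFP- cells of mES medium, 81.1 and 141 TPM in those of 5C medium, and 70.2, 288 and 422 TPM in the naive, primed and R1 ESCs-primed libraries. *Gnas*, the locus of the Gs alpha subunit, was at 100.1 TPM with the reporter on and 1391 TPM with it off in mES medium, 349 TPM and 1142 TPM in that order in 5C medium, 69.8 TPM in the naive library, 1108 TPM in the primed library and 856 TPM in R1 ESCs-primed, a range of levels in which mES-Oct4GFP+ cells and the naive library stood lowest. *Zdbf2* lay between 7.76 and 57.1 TPM and *H13*, a signal peptide peptidase gene, between 20.2 and 162 TPM, both lowest in the naive library. Less variable genes were *Copg2*, a coatomer subunit gene, from 32.0 to 70.8 TPM, *Impact*, a regulator of translation, from 27.1 to 108 TPM, and *Zrsr1*, a splicing-factor-like gene, from 5.47 to 18.9 TPM. *Nap1l5* did not pass 2.70 TPM. *Gnas* overlaps *Nespas* over 11117 bases and *Zrsr1* overlaps *Commd1* over 4492 bases, in both cases on the other strand. *Mest* and *Copg2* overlap over 912 bases on opposite strands, and *H13* overlaps *Mcts2* over 912 bases on the same strand.

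For comparisons between 2 libraries, differences were taken on the log2(TPM + 1) scale, which understates those of low genes. A gene that reached 1 TPM in 1 of the 2 libraries was called higher or lower at a difference of 1, that is 2-fold. Ratios are of TPM, with exact 95% Clopper-Pearson intervals from the counts. No test between groups can be made with 1 library each, and the share of all genes past the same limits is given beside the imprinted ones as the background. Several comparisons below share the 5C-Oct4GFP+ library, so that their values are not independent of each other. In every bulk library, fewer cells of a type and less RNA per cell cannot be told apart.

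The first comparison was of the culture medium among Oct4GFP+ cells. In 5C-Oct4GFP+ cells *Nnat*, *Grb10*, *Phlda2* and *H19* were among the genes higher than in mES-Oct4GFP+ cells, while *Plagl1* and *Usp29* were far lower. Of 32 imprinted genes with enough signal, 14 were called higher, where 13.7% of all genes were, and 2 lower, where 13.5% of all genes were. Their median difference was 0.66, against -0.06 for all genes. *Plagl1* was 96.2-fold lower in 5C-Oct4GFP+ cells (95% interval 63.9 to 152), at 1.40 against 134.7 TPM. *Usp29* had no read there and 17.3 TPM in mES-Oct4GFP+ cells, at least 83.4-fold lower against a floor of 3 counts per library, while the exact interval of the ratio starts at 67.0. These 2 were the lower genes.

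On the higher side, *Nnat* stood 12.6-fold above mES-Oct4GFP+ cells (interval 7.23 to 23.9), with 45.7 against 3.64 TPM. *Grb10* was 7.91-fold higher (6.96 to 9.02), with 125 against 15.8 TPM. *Phlda2* was 8.65-fold higher (4.05 to 22.1) and *H19* 6.66-fold higher (5.02 to 9.00), from low levels of 3.08 and 7.45 TPM in mES-Oct4GFP+ cells. The other 10 higher genes were *Slc22a18*, *Peg10*, *Ppp1r9a*, *Gnas*, *Cdkn1c*, *Meg3*, *Igf2*, *Rian*, *Mest* and *Sgce*, with differences on the log2(TPM + 1) scale from 2.33 for *Slc22a18* down to 1.22 for *Sgce*. By parental copy, 8 of 13 maternally expressed genes were higher and none lower, and of 18 paternally expressed genes 5 were higher and 2 lower. Fibroblast markers had 2 of 12 tested genes higher and 4 lower in this comparison, with a summed level of 548 TPM in 5C and 650.0 TPM in mES medium, and *Col1a1* at 1.50 and 4.05 TPM. The median marker was at 0.935 and 1.065 TPM in that order, so that these sums came from the higher part of the list.

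Among Oct4GFP- cells the same change of medium went with lower levels. Of 36 genes tested, 14 were lower with 5C medium, where 10.1% of all genes were, and 1 was higher, where 9.68% of all genes were. The median difference was -0.55, against 0.03 for all genes. *H19* was 10.5-fold lower (interval 10.1 to 10.9), at 297 against 3110 TPM, and *Igf2* 10.2-fold lower (9.58 to 10.9), at 95.03 against 972 TPM. *Peg10* was 8.66-fold lower (8.03 to 9.34), with 36.9 against 319.6 TPM. *Asb4* was 16.3-fold lower (10.7 to 26.0) and *Zim1* 11.0-fold lower (6.48 to 20.2), each with under 2 TPM in 5C-Oct4GFP- cells. *Plagl1* was 7.22-fold lower (6.08 to 8.62), at 7.41 against 53.5 TPM, so that it was lower in 5C medium in both sorted fractions.

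The other 8 lower genes were *Dlk1*, *Peg3*, *Mest*, *Phlda2*, *Zdbf2*, *Airn*, *Grb10* and *Igf2r*, with differences from -2.50 for *Dlk1* to -1.02 for *Igf2r* on the log2(TPM + 1) scale. *Nnat* was the higher gene, at 223 against 109.8 TPM, a difference of 1.02 that did not reach 1 when the libraries were rescaled to each other by median ratios. Markers of other cell types moved with this comparison. Of the fibroblast markers 9 of 18 were lower and 2 higher, of the primitive endoderm markers 10 of 10 were lower, and of 8 trophoblast markers tested 7 were lower. In mES-Oct4GFP- cells the endoderm genes *Ttr* and *Afp* were at 36.0 and 19.3 TPM and the trophoblast genes *Hand1* and *Krt7* at 42.6 and 176.5 TPM, whereas in 5C-Oct4GFP- cells *Ttr* was at 0.20, *Hand1* at 0.27 and *Krt7* at 4.68 TPM and *Afp* was listed at 0. The summed endoderm markers were 254 and 21.1 TPM and the summed trophoblast markers 250 and 17.8 TPM. Yolk sac and placenta are known to express *H19*, *Igf2*, *Peg10* and *Phlda2*, and the part of such cells in these differences was not tested.

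**Figure D3:**
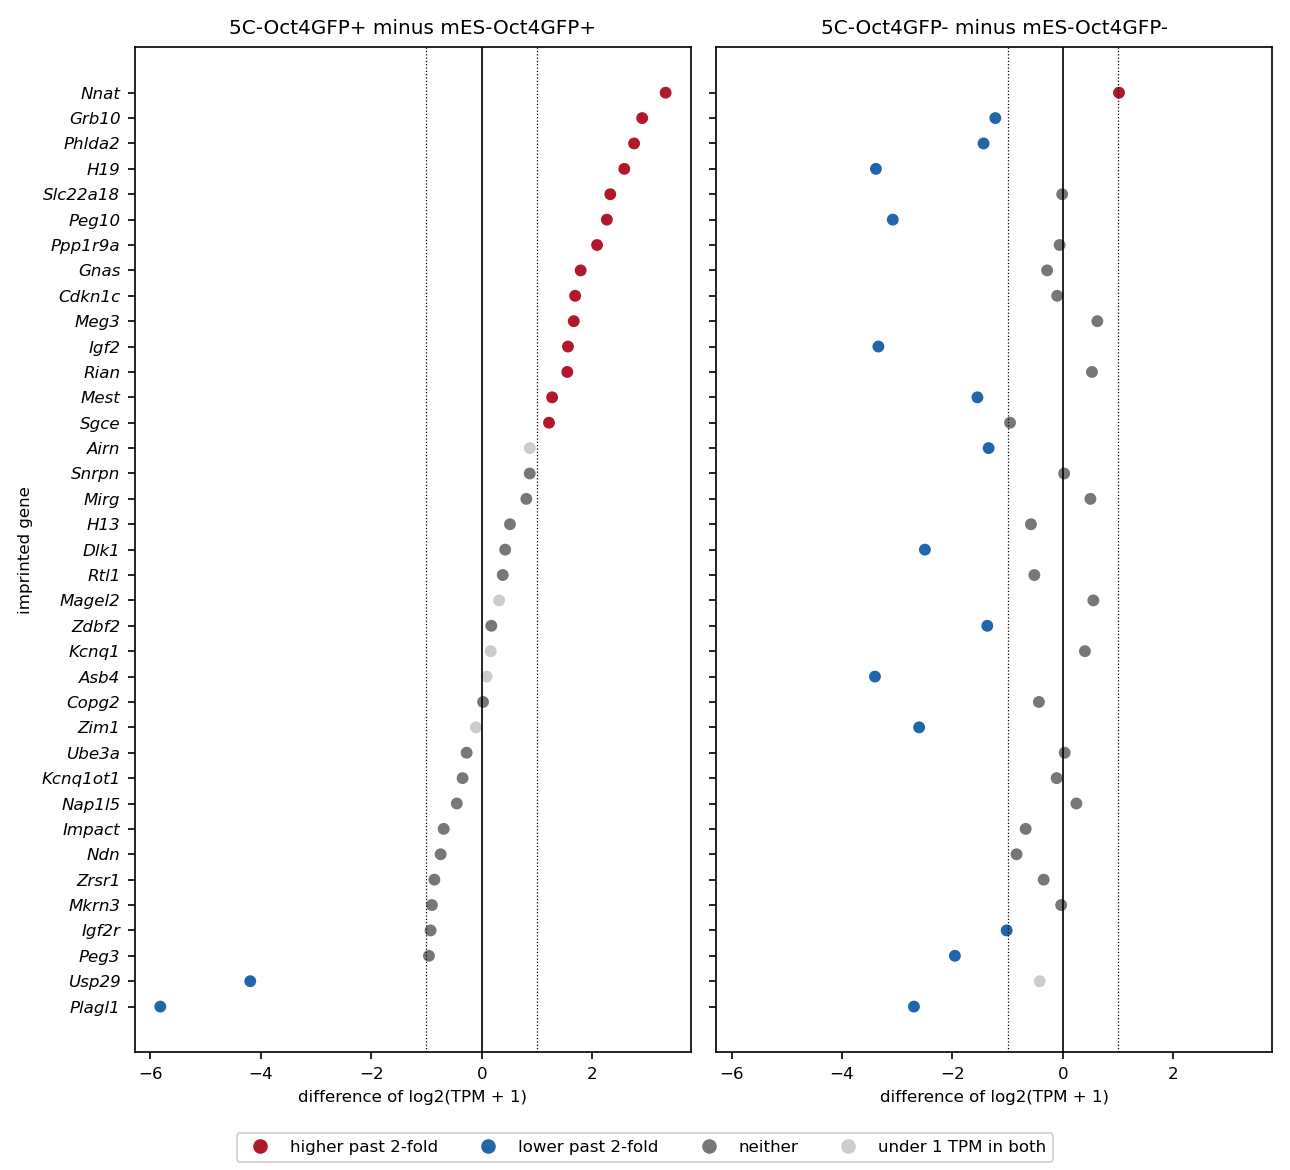
Difference of log2(TPM + 1) between 5C and mES medium for each imprinted gene, in Oct4GFP+ cells (left) and Oct4GFP- cells (right), with 1 library per group. Red points are past 2-fold higher (14 left, 1 right), blue points past 2-fold lower (2 left, 14 right), and dotted lines mark 2-fold. *H19*, *Igf2*, *Peg10*, *Phlda2*, *Grb10* and *Mest* lie on opposite sides in the 2 panels.

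Between the sorted fractions, called genes were mostly lower in Oct4GFP+ cells in either medium. In mES medium 21 of 36 genes were lower in Oct4GFP+ cells, where 28.8% of all genes were, and 2 were higher, where 17.9% of all genes were, with a median difference of -1.91 against -0.15 for all genes. *Igf2* was 720-fold lower (interval 391 to 1502) and *H19* 417-fold lower (319 to 557). *Dlk1* was 142-fold lower (48.4 to 689), from 3 counts in mES-Oct4GFP+ cells, *Grb10* 43.4-fold lower (38.4 to 49.4) and *Peg10* 40.5-fold lower (33.7 to 49.1). *Airn* had no read in mES-Oct4GFP+ cells and was at least 23.4-fold lower against the floor of 3 counts, while the exact interval of the ratio starts at 18.8. The remaining 15 lower genes ran from *Asb4*, with a difference of -4.70, to *Igf2r*, with -1.50. The higher genes were *Usp29*, at 17.3 against 0.71 TPM, and *Plagl1*, at 134.7 against 53.5 TPM. All but 1 of the 18 fibroblast markers and all 10 primitive endoderm markers were also lower in mES-Oct4GFP+ cells, with *Twist2*, *Ttr* and *Afp* at 0 there, and their part in the imprinted genes' differences was not tested.

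In 5C medium, 16 of 36 genes were lower in Oct4GFP+ cells, where 22.6% of all genes were, and 1 was higher, where 8.45% of all genes were. The median difference was -0.78, against -0.25 for all genes. With median-ratio rescaling, with FPKM or with a minimum TPM of 5, 13 were lower in place of 16. Rescaling left 2823 of all genes lower, in place of 3538. Among the 16, *Asb4* and *Kcnq1* had 1 and 2 counts in Oct4GFP+ cells. *Igf2* was 16.0-fold lower (12.7 to 20.4) and *Dlk1* 15.6-fold lower (8.72 to 30.7), at 5.94 and 2.33 TPM in Oct4GFP+ cells. *Airn* was 13.1-fold lower (4.81 to 50.1), from 4 counts, and *H19* 5.98-fold lower (5.46 to 6.56). *Cdkn1c* was 5.28-fold lower (4.37 to 6.43) and *Nnat* 4.89-fold lower (4.29 to 5.58). *Phlda2* was the higher gene, at 26.7 against 10.3 TPM. *Plagl1* was among the lower ones here, at 1.40 against 7.41 TPM, and *Meg3* and *Rian* were called neither higher nor lower in either medium. Of 17 fibroblast markers tested 15 were lower and none higher, with summed levels of 548 and 1294 TPM and medians of 0.935 and 20.055 TPM. Their part was again not tested.

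After culture in naive medium, called genes were mostly lower than in the 5C-Oct4GFP+ library, with *Plagl1* and *Usp29* as the exceptions. Of 32 genes, 15 were lower in the naive library, where 17.5% of all genes were, and 2 were higher, where 10.0% of all genes were, with a median difference of -0.65 against -0.10 for all genes. *Plagl1* was 59.0-fold higher (39.2 to 93.3), at 82.5 against 1.40 TPM, and *Usp29* was the other higher gene, at 5.26 TPM against no read. *Ppp1r9a* was 17.7-fold lower (11.9 to 27.6), *H19* 14.9-fold lower (10.4 to 21.9), *Grb10* 13.8-fold lower (11.9 to 15.9), *Nnat* 13.2-fold lower (8.19 to 22.5) and *Peg10* 9.32-fold lower (7.60 to 11.6). The other 10 lower genes were *Slc22a18*, *Gnas*, *Phlda2*, *Meg3*, *Rian*, *Sgce*, *Igf2*, *Dlk1*, *Cdkn1c* and *H13*. Maternally expressed genes made up 9 of the 15, of 13 tested, and paternally expressed genes 5, of 18 tested. Fibroblast markers were near the same low level in both libraries, with 1 of 13 tested higher and 3 lower and *Col1a1* at 1.63 and 1.50 TPM.

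Culture in primed medium went with higher levels of *Dlk1*, *Igf2*, *Magel2* and other genes. Of 34 genes, 15 were higher in the primed library than in 5C-Oct4GFP+ cells, where 13.7% of all genes were, and 1 was lower, where 16.1% of all genes were. The median difference was 0.80, against 0.06 for all genes. Of 18 paternally expressed genes 11 were higher and none lower, and of 15 maternally expressed genes 3 were higher and 1 lower. *Dlk1* was 14.8-fold higher (8.37 to 29.0), at 34.5 against 2.33 TPM, and *Igf2* 10.8-fold higher (8.58 to 13.8), at 64.4 against 5.94 TPM. *Magel2* was 20.3-fold higher (12.8 to 34.1), at 14.8 against 0.73 TPM. *Peg3* was 4.20-fold higher (3.92 to 4.50) and *Ndn* 4.04-fold higher (3.07 to 5.37). *Asb4*, with 1 count in 5C-Oct4GFP+ cells, had a ratio of 73.5 (13.1 to 2916).

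The other 9 higher genes were *Mest*, *Plagl1*, *Gnas*, *Zdbf2*, *Snrpn*, *Phlda2*, *Grb10*, *Sgce* and *Airn*, with differences on the log2(TPM + 1) scale from 1.82 to 1.07. *Slc22a18* was the lower gene, at 2.63 against 9.25 TPM. Fibroblast markers moved the same way, with 15 of 18 higher and 1 lower in the primed library and *Col1a1* at 13.3 against 1.50 TPM, although their summed level was lower, at 334 against 548 TPM, through *Fn1*. Of 6 primitive endoderm markers tested, 5 were higher, with *Ttr* at 0 in both libraries. Feeder cells are stated for the induction of R1 ESCs-primed but not for that of the converted cells. The part of fibroblast RNA in these differences was not tested.

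Set against R1 ESCs-primed, the primed library was within 2-fold for most imprinted genes. Of 34 genes, 7 were lower, where 5.09% of all genes were, and 2 were higher, where 2.3% of all genes were. The median difference was -0.35, against -0.03 for all genes. *Nnat* differed most, 11.7-fold lower (9.98 to 13.7), at 27.2 against 318 TPM. *Airn* was 6.26-fold lower (3.71 to 11.1), *Cdkn1c* 4.44-fold lower (3.68 to 5.38) and *H19* 4.01-fold lower (3.69 to 4.36). *Dlk1*, *Peg10* and *Impact* were lower by less, with differences of -1.49, -1.31 and -1.17. *Asb4* was 3.57-fold higher (2.51 to 5.21) and *Grb10* 2.98-fold higher (2.84 to 3.14). Of the 18 fibroblast markers 13 were lower and none higher, with a median difference of -1.37 and summed levels of 334 and 765 TPM, and their part was not tested. *Snrpn* and *Magel2*, high in both cultures, were called neither higher nor lower.

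**Figure D4:**
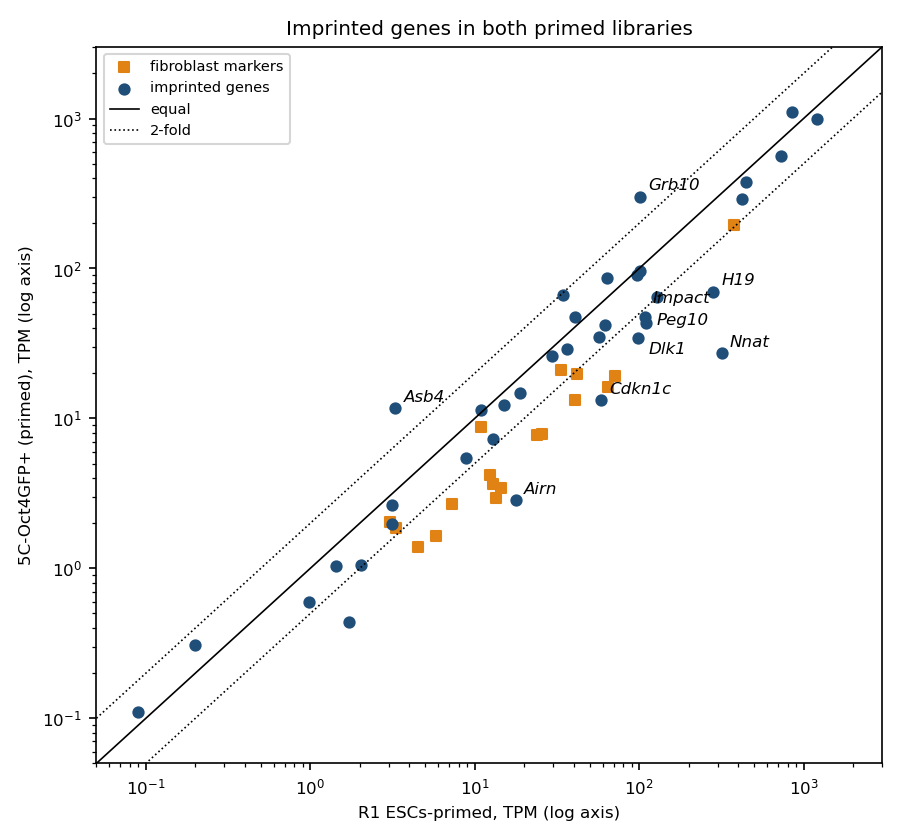
TPM of the imprinted genes (blue circles) and of 18 fibroblast markers (orange squares) in R1 ESCs-primed (x axis) and in the primed library of 5C-Oct4GFP+ origin (y axis), both axes logarithmic, 1 library each. Most circles lie within the dotted lines, which mark 2-fold in TPM. Labels follow the calls on log2(TPM + 1): 7 labelled genes lie below and 2 above, and 13 of the squares were called lower. *Igf2* and *Nap1l5*, with TPM ratios of 0.499 and 0.257, lie below the lower line but were not called.

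The naive library and mES-Oct4GFP+ cells had the fewest imprinted genes past 2-fold of the 8 comparisons. Of 32 genes, 4 were lower in the naive library, where 6.27% of all genes were, and 1 was higher, where 2.49% of all genes were, with a median difference of -0.34 against -0.16 for all genes. *Usp29* was 3.29-fold lower (2.43 to 4.49), at 5.26 against 17.3 TPM, *Mkrn3* 3.42-fold lower (1.69 to 7.35) and *Ppp1r9a* 3.29-fold lower (2.04 to 5.45). *Dlk1*, the fourth, had 1 and 3 counts, at or under the floor in both. *Mest* was 2.13-fold higher (1.84 to 2.47), at 70.2 against 32.9 TPM. With FPKM in place of TPM, 1 gene was lower and 1 higher. After median-ratio rescaling 3 were lower and 1 higher, and over all genes 523 were higher and 709 lower, against 361 and 908 in TPM.

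Likeness of these 2 libraries was followed gene by gene, as a pattern chosen after the values were seen. For 21 of the 37 genes both were below all 5 other libraries, where 20.7% of all genes were, and for 4 both were above, where 14.9% of all genes were. The 21 were *H19*, *Igf2*, *Airn*, *Meg3*, *Rian*, *Dlk1*, *Snrpn*, *Magel2*, *Peg10*, *Sgce*, *Ppp1r9a*, *Cdkn1c*, *Phlda2*, *Slc22a18*, *Kcnq1*, *Grb10*, *Mest*, *Nnat*, *Gnas*, *Zdbf2* and *H13*, and so held members of 6 of the 7 clusters. The 4 were *Usp29*, *Plagl1*, *Zrsr1* and *Kcnq1ot1*. With a gap of 2-fold between the sets required, 12 genes were below, against 7.83% of all genes, and 1 above, *Usp29*, against 4.39%. *Airn* and *Kcnq1* are among the 12 through having no read in either library, so that the depth sets their gap. Leaving out both Oct4GFP- libraries, which had the highest summed fibroblast markers, gave 21 below, against 25.7% of all genes, and 4 above, against 21.8%, with *Mirg* in the place of *Kcnq1* among those below.

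Factors that set or keep imprints were read from a list of 18. With 5C in place of mES medium, 4 were higher and 1 lower among Oct4GFP+ cells (13.7% and 13.5% of all genes), and 5 higher and none lower among Oct4GFP- cells (9.68% and 10.1%). Against 5C-Oct4GFP+ cells, 1 was higher and 6 were lower in the naive library (10.0% and 17.5% of all genes). *Dnmt3l*, a cofactor of the de novo DNA methyltransferases, was at 5.31 TPM with the reporter on and 1.31 TPM with it off in mES medium, 525 TPM and 1.04 TPM in that order in 5C medium, 20.2 TPM in the naive library, 0.47 TPM in the primed library and 16.0 TPM in R1 ESCs-primed. It was over 500 TPM in 5C-Oct4GFP+ cells and did not pass 20.3 TPM elsewhere. *Dppa3*, which protects maternal methylation in the zygote, was at 494 and 0.37 TPM in Oct4GFP+ and Oct4GFP- cells of mES medium, 71.2 and 4.32 TPM in those of 5C medium, and 388, 0.21 and 2.05 TPM in the naive, primed and R1 ESCs-primed libraries. The 2 libraries above 300 TPM were mES-Oct4GFP+ cells and the naive library, with 5C-Oct4GFP+ cells next.

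*Zfp57*, the zinc finger gene for the protein that reads methylated TGCCGC, was at 370.2 and 157 TPM in Oct4GFP+ and Oct4GFP- cells of mES medium, 436 and 131 TPM in those of 5C medium, and 389, 98.1 and 87.6 TPM in the naive, primed and R1 ESCs-primed libraries. It was highest in the 3 libraries of Oct4GFP+ cells before conversion or in naive medium, and lowest in the 2 primed cultures. *Trim28*, its corepressor partner, was at 463 TPM or more in every library. *Dnmt3b*, a de novo methyltransferase, was at 85.8 TPM with the reporter on and 49.4 TPM with it off in mES medium, 366 TPM and 104 TPM in that order in 5C medium, 115 TPM in the naive library, 844 TPM in the primed library and 823 TPM in R1 ESCs-primed, highest in the primed cultures. *Dnmt1* and *Uhrf1*, which copy methylation after replication, were lowest in mES-Oct4GFP- cells, at 62.2 and 77.6 TPM. *Tet1*, which oxidises methylated cytosine, was highest in 5C-Oct4GFP+ cells, at 132 TPM, and lowest in mES-Oct4GFP- cells, at 4.43 TPM. Between the primed library and 5C-Oct4GFP+ cells 1 factor was higher and 5 were lower (13.7% and 16.1% of all genes), and against R1 ESCs-primed none was higher and 2 were lower (2.3% and 5.09%). In Oct4GFP+ against Oct4GFP- cells 8 factors were higher and 1 lower, both in mES medium (17.9% and 28.8% of all genes) and in 5C medium (8.45% and 22.6%). Methylation itself was not measured.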

How the data were processed

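TruSeq v2 libraries, 1 per group, were sequenced on a MiSeq. The submitters' processing notes name Bowtie, RSEM and mm10; their versions, the annotation and the strand setting are not given in the sources used here. For each Ensembl gene the deposited tables give expected counts (RSEM's estimated reads, not normalized), TPM and FPKM, both calculated by the authors with RSEM, and lengths.

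Members were matched by Ensembl identifier through GENCODE M21 (GRCm38). Differences used deposited TPM on log2(TPM + 1), a minimum TPM of 1 in either library and 2-fold as the limit. Ratio intervals (95%, Clopper-Pearson) and level intervals (Poisson) came from expected counts rounded to whole numbers, and the floor for a gene without reads was 3 counts. Totals of 6108252 to 11496615 counts set this precision. No test was run, since no group had a second library. Ratios are given for at most 6 genes per comparison, those with the largest difference whose interval excludes 1, and genes outside the set come from lists, at most 4 per list and comparison. *Fn1* and *Twist2* were named after their values were seen. The members and lists were chosen with earlier results of these data known. Alternatives were a pseudocount of 0.1, median-ratio rescaling, FPKM, a minimum TPM of 5 or none, and an interval that excludes 1. Interval code was tested on simulated data. Python 3.11.15, numpy 2.4.6, pandas 2.3.3 and scipy 1.17.1 were used.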

Additional observations from a re-analysis of the deposited data

Results flagged for a closer look

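The same contrast ran in opposite directions in the 2 sorted fractions or the 2 media for 7 imprinted genes, all past 2-fold on both sides. The share of all genes that do the same was not counted, so the 7 have no background beside them. Each direction rests on 1 library per group, so the difference between the contrasts was not tested. Both kinds of contrast draw on the same sorted libraries and are not independent. Summed endoderm and trophoblast markers were at 254 and 250 TPM in mES-Oct4GFP- cells, against 21.1 and 17.8 TPM in 5C-Oct4GFP- cells, and their part was not tested. The values are differences of log2(TPM + 1).

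For 5C against mES medium, *H19* differed by 2.58 in Oct4GFP+ cells and by -3.39 in Oct4GFP- cells, and *Igf2*, its neighbour, by 1.56 and -3.34. *Peg10* differed by 2.27 and -3.08, and *Phlda2* by 2.76 and -1.44. *Grb10* had 2.91 and -1.22, and *Mest* had 1.28 and -1.55. All 6 genes were thus higher with 5C medium in the sorted cells with the reporter and lower in those without it.

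For Oct4GFP+ against Oct4GFP- cells, *Phlda2* differed by -2.90 in mES medium and by 1.29 in 5C medium. *Plagl1* went the other way, with 1.32 in mES medium and -1.81 in 5C medium.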

How the results depend on the processing

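No paired analysis was possible because each group had 1 library and no test was run. Of 121 counts recomputed under the alternatives, 5 moved by over 1.5 times. In 5C-Oct4GFP- against mES-Oct4GFP- cells, median-ratio rescaling left 0 genes higher in place of 1. In the naive library against mES-Oct4GFP+ cells, 1 gene was lower with FPKM and 1 with a minimum TPM of 5, in place of 4. For the pattern in which the naive and mES-Oct4GFP+ libraries both lie beyond the other 5, a 2-fold gap gave 12 genes below and 1 above, in place of 21 and 4. Leaving out each of the other 5 libraries in turn gave 20 to 24 below, where 21.6% to 28.2% of all genes were, and 4 to 5 above, where 15.6% to 18.9% were, with the most below (24, at 28.2%) without 5C-Oct4GFP+ cells. These pattern alternatives were chosen after seeing the data. None of 354 recomputed single-gene differences changed sign, but only genes already called past 2-fold were recomputed. The alternatives shift a difference too little to reverse such genes, so the absence of sign changes does not measure how stable they are. The rescaling factors ran from -0.17 to 0.18 on the log2 scale, so that differences of that size between libraries depend on the scale. Depth limits *Airn*, *Asb4*, *Dlk1*, *Kcnq1*, *Slc22a18*, *Usp29* and *Zim1*, which had 3 counts or fewer in at least 1 library.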

Other observations

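The second list of imprinted genes, 42 of 44 matched, held further genes that were high in mES-Oct4GFP+ cells and the naive library. *Slc38a4*, an amino acid transporter gene expressed from the paternal copy, was at 194 TPM in mES-Oct4GFP+ cells and 155 TPM in the naive library, against 24.2 TPM in 5C-Oct4GFP+ cells. *Smoc1* had 20.5 and 16.8 TPM in the same 2 libraries against 2.29 TPM, and *Sfmbt2*, a polycomb-related gene of the placenta, had 13.6 and 12.5 TPM against 2.15 TPM. In all, 8 of 28 genes tested were lower and 3 higher with 5C medium among Oct4GFP+ cells, where 13.5% and 13.7% of all genes were. Called genes of the 37 went mostly the other way, with 14 higher and 2 lower of 32 tested. The median difference was -0.14 on this list and 0.66 for the 37 genes, so that the direction depends on which imprinted genes are listed. In the naive library 7 of 28 were lower and 4 higher than in 5C-Oct4GFP+ cells, where 17.5% and 10.0% of all genes were. The median difference there was 0.08 on this list, against -0.65 for the 37 genes and -0.10 for all genes. Both comparisons share the 5C-Oct4GFP+ library.

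In primed medium the calcitonin receptor gene *Calcr* was at 9.93 TPM against 0.17 TPM in 5C-Oct4GFP+ cells, among 7 genes higher and 7 lower of 30 tested, where 13.7% and 16.1% of all genes were. *Ddc*, the aromatic amino acid decarboxylase gene next to *Grb10*, went the other way, at 5.16 against 31.2 TPM. Against R1 ESCs-primed, 7 of 29 genes were lower in the primed library and none higher, where 5.09% and 2.3% of all genes were, with *Tfpi2* at 0.88 against 6.80 TPM and *Gab1* at 14.2 against 47.5 TPM. In the Oct4GFP- comparison of media, 6 of 33 genes were lower and 1 higher in 5C medium, where 10.1% and 9.68% of all genes were, and *Ddc* was at 21.3 against 135 TPM. The decorin gene *Dcn*, which is on this list and on that of fibroblast markers, was at 12.2 and 16.5 TPM in mES-Oct4GFP- and 5C-Oct4GFP- cells and at 0.35 and 0.87 TPM in the Oct4GFP+ cells of the same media.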
